A study of Mus musculus with 30 samples.

Results

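The 10 genes described here are transcriptional targets and feedback regulators of FGF and MAPK signalling: *Dusp6*, *Spry2*, *Spry4*, *Spred1*, *Spred2*, *Egr1*, *Etv4*, *Etv5*, *Ier3* and *Myc*. They were chosen by name, and each matched 1 row of a table of 55421 genes, so all 10 were found and all 10 passed the filter on low counts. The RNA came from female mouse embryonic stem cells (mESCs) of a 129/Sv x Cast/Ei cross, in which the 129/Sv allele is called *Mus* and the Cast/Ei allele *Cast*, and bulk RNA-seq was made of 30 libraries in 17 conditions. The study asked how cells respond to the loss of X-linked DNA on 1 of 2 active X chromosomes. The groups were XX wild type (XX WT, 2 libraries), XX Rnf12 +/- (2), the XO cells that kept the *Cast* X (XCastO, 2) or the *Mus* X (XMusO, 2), and 13 heterozygous X-chromosome deletions. Deletions C, D, E, F, H, I, I-TEL, J and K had 2 clones each and deletions A, B, AB and C-G had 1 clone each. By the paper's coordinates, AB spans A and B, C-G spans C, D, E and F, and I-TEL spans I, J and K. Lines set against each other can therefore share deleted DNA, and the part of this overlap was not tested. Every deletion line also carried Rnf12 +/- and kept the neomycin cassette of its targeting construct, and lines I-TEL and J came from a second Rnf12 +/- founder. All cells were grown in serum with LIF on fibroblast feeders that were depleted before harvest. The XO lines came from the same CRISPR-Cas9 targeting, in cells that lost a whole X chromosome, and XMusO kept the X that carries the *Rnf12* deletion.

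The FGF pathway carries a signal from a secreted ligand through a receptor tyrosine kinase, RAS, RAF and MEK to the kinase ERK, which drives transcription factors of the ETS, AP-1 and EGR families. Among the first genes that ERK switches on are its own brakes, so the level of these brakes is often read as a gauge of pathway output. In mESCs, FGF4 made by the cells themselves supplies most of the signal and moves cells out of the naive state, and XX cells are known to differ from XO and XY cells in MAPK signalling.

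The counts per library ranged from 8816184 to 10680026 in the library series of 12 deletion lines, from 20375194 to 21181405 in the series of the XX WT, XX Rnf12 +/- and deletion E cells, and from 14998265 to 16494893 in the series of the XO cells. Single-end sequencing was used for XO and paired-end for the rest, so an effect of X loss cannot be told apart from one of the series or the read type. The transcript of *Rnf12* (symbol *Rlim*) was at 211 and 193 TPM (counts scaled by exon length and library total) in XX WT, at 77.6 and 79.7 TPM in XX Rnf12 +/-, at 71.2 and 77.8 TPM in XCastO and at 3.53 and 3.53 TPM in XMusO. It ranged from 50.4 to 144 TPM in the 12 deletion lines sequenced together. The *Mus* share of X-linked allelic counts was 7.62% and 7.09% in XCastO and 98.4% and 98.5% in XMusO, as the labels of these lines state. The embryonic stem cell markers *Pou5f1*, *Sox2*, *Nanog*, *Esrrb*, *Zfp42*, *Klf4*, *Tbx3* and *Dppa5a* summed to between 8569 and 14864 TPM in every library. Feeder markers summed to between 86.3 and 394 TPM. The fibroblast marker *Dcn* reached at most 4.97 TPM. *Col1a1* was uneven in the XX cells, at 138 and 36.4 TPM in the 2 XX WT libraries and at 170 and 28.3 TPM in the 2 XX Rnf12 +/- libraries. In bulk RNA, fewer cells of a type and less RNA per cell cannot be told apart.

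The sequences before the start of 4 members are shown as examples with a RefSeq entry, chosen after their values were seen: *Dusp6* and *Spry2* were both lower in the 12 deletion lines sequenced together, and *Spred2* and *Etv5* were higher in both XO lines. RefSeq promoter entries were matched for 6 of the 10 members (*Spred1*, *Dusp6*, *Spred2*, *Spry2*, *Etv5* and *Ier3*). The windows are chr10:99262981-99263230 on the plus strand for *Dusp6*, chr14:105896820-105897069 on the minus strand for *Spry2*, chr11:19924192-19924374 on the plus strand for *Spred2* and chr16:22439720-22439820 on the minus strand for *Etv5* (GRCm38.p6). Each is written 5′ to 3′ along the gene, ends before the first base of the gene in GENCODE M21, and has CCAAT on either strand in capitals.
Dusp6: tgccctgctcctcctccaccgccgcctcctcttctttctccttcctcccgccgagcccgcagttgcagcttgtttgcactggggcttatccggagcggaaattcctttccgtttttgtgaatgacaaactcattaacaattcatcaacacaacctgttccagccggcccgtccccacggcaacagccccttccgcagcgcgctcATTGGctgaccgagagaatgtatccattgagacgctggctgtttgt
Spry2: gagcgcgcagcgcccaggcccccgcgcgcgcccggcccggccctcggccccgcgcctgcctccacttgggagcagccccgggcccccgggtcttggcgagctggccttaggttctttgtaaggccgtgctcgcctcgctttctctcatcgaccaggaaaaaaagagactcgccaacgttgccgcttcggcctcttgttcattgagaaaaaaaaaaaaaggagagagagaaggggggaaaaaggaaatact
Spred2: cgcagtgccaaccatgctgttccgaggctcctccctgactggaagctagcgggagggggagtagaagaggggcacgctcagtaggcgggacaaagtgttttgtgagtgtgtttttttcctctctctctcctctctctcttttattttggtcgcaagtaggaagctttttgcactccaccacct
Etv5: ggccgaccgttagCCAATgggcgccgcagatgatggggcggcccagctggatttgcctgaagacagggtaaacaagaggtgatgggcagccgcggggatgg
Of these 4 windows, those of *Dusp6* and *Etv5* hold 1 CCAAT each, and those of *Spred2* and *Etv5* are shorter than 250 bases. In the full 250 bases, the *Etv5* promoter shown holds 3, the second *Etv5* promoter 1 and *Ier3* 2, while *Spred1*, *Spred2* and *Spry2* hold 0. In all 32851 RefSeq promoters, CCAAT on either strand is in 33.8% of the 250 bases before the start. For ETS factors only the longer motifs CCGGAA and GGAAGT were searched, on both strands. Either is in 27.1% of all promoters and in none of the 4 printed windows. The shorter GGAA, which occurs in the printed windows of *Dusp6*, *Spry2* and *Spred2*, was not counted. In the full 250 bases of *Spred2*, GGAAGT lies 33 bases before the RefSeq start, and the second *Etv5* promoter holds it 217 bases before its start. The cyclic AMP element TGACGTCA (1.55% of all promoters), the AP-1 site TGANTCA (6.75%), the EGR site GCGTGGGCG (0.536%) and the CArG box (1.47%) have no match in the 6 members' windows. CCAAT was added to the search after the sequences had been read.

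In XO against XX cells, the ETS genes *Etv4* and *Etv5* and the inhibitor gene *Spred2* were higher and the immediate-early gene *Egr1* was lower. The inhibitor gene *Spry4* was also called higher, but its groups overlapped. With edgeR's quasi-likelihood test at a Benjamini-Hochberg adjusted p under 0.05, 4 of the 10 members were higher (*Spry4*, *Spred2*, *Etv4* and *Etv5*), 1 was lower (*Egr1*) and 5 did not pass. Of all 18316 genes tested, 25.7% were higher and 29.5% lower, so the members' counts are not far from those of genes at large. The median log2 fold change of the 10 members was 0.35, beside -0.05 over all genes tested.

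*Etv4*, which encodes an ETS transcription factor of the PEA3 group that acts downstream of FGF signalling, had the widest gap. Its level was 60.3 and 43.6 TPM in XX WT, 90.0 and 74.1 TPM in XX Rnf12 +/-, 185 and 103 TPM in XCastO and 195 and 229.5 TPM in XMusO. All 4 XO libraries lay above all 4 XX libraries. The difference was 1.55 ± 0.16 on the log2 scale (SE, edgeR adjusted p = 1.5e-07), or 2.94-fold.

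*Etv5*, its paralogue in the same group, was at 199.5 and 169.8 TPM in XX WT, 206 and 193 TPM in XX Rnf12 +/-, 303 and 329.5 TPM in XCastO and 269 and 275 TPM in XMusO. Here too the groups did not overlap. The log2 difference was 0.75 ± 0.11 (SE, edgeR adjusted p = 1.46e-05).

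*Spred2*, which encodes a membrane-bound brake on RAF activation, was at 56.4 and 47.2 TPM in XX WT, 58.3 and 47.6 TPM in XX Rnf12 +/-, 86.1 and 73.4 TPM in XCastO and 92.2 and 94.3 TPM in XMusO. The lowest XO library was above the highest XX library. The log2 difference was 0.86 ± 0.07 (SE, edgeR adjusted p = 8.67e-09), the smallest error among the members.

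*Egr1*, the zinc-finger factor induced within minutes of ERK activation, went the other way. It was at 456 and 384 TPM in XX WT, 463 and 617 TPM in XX Rnf12 +/-, 313 and 236 TPM in XCastO and 167 and 173 TPM in XMusO. All XO libraries were below all XX libraries. *Egr1* fell by 1.01 ± 0.12 on the log2 scale (SE, edgeR adjusted p = 1.04e-06).

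*Spry4*, which encodes a Sprouty inhibitor of receptor tyrosine kinase signalling, passed the test with overlapping groups. It was at 96.5 and 47.1 TPM in XX WT, 165 and 91.7 TPM in XX Rnf12 +/-, 174 and 131 TPM in XCastO and 99.3 and 113 TPM in XMusO. The log2 difference of 0.54 ± 0.18 (SE, edgeR adjusted p = 0.0179) did not pass without XCastO replicate 1 (0.41, adjusted p = 0.098), XMusO replicate 2 (0.49, adjusted p = 0.0612), XX Rnf12 +/- replicate 2 (0.36, adjusted p = 0.0971) or XX WT replicate 2 (0.33, adjusted p = 0.106). With only the 8 XX and XO libraries in the fit its adjusted p was 0.113. Against XX Rnf12 +/- alone, *Spry4* was not called in XCastO (0.34 ± 0.26, edgeR adjusted p = 0.326) or in XMusO (-0.13 ± 0.26, edgeR adjusted p = 0.709).

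The other members did not pass. *Dusp6*, the cytoplasmic phosphatase that switches ERK off, was at 85.7 and 49.0 TPM in XX WT, 102 and 59.6 TPM in XX Rnf12 +/-, 125 and 102 TPM in XCastO and 65.1 and 67.2 TPM in XMusO. Replicate 1 of both XX groups was high, and the XO lines stood on either side of the XX mean. The log2 differences were 0.37 ± 0.16 for *Dusp6* (adjusted p = 0.0621) and 0.33 ± 0.14 for *Spry2* (adjusted p = 0.0511). *Spry2*, the other Sprouty gene, ranged from 222 to 252 TPM in XO and from 138 to 262 TPM in XX libraries. *Spred1*, a relative of *Spred2*, differed by -0.12 ± 0.14, *Ier3*, an ERK-responsive survival factor, by -0.25 ± 0.16, and *Myc*, the growth-promoting transcription factor, by 0.19 ± 0.21 (SE, edgeR). *Dusp6* passed without XX WT replicate 1 (adjusted p = 0.00581) or XX Rnf12 +/- replicate 1 (adjusted p = 0.0042). *Spry2* also passed without either of these libraries (adjusted p = 0.00146 and 0.0276), and *Spred1* was lower without XCastO replicate 1 (-0.39, adjusted p = 0.00923) and turned to 0.053 without XCastO replicate 2. Both *Dusp6* (0.0469) and *Spry2* (0.0358) also passed with DESeq2 size factors in edgeR.

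*Dusp6*, *Spry2*, *Spry4* and *Myc* were higher in replicate 1 than in replicate 2 of both XX groups, as was *Col1a1*. The part that feeder RNA or culture plays in this was not tested. A fit without both XX replicate 1 libraries, chosen after the *Col1a1* level was seen, leaves 1 library in each XX group. There the log2 differences in XO against XX were 0.79 for *Dusp6*, 0.62 for *Spry2* and 0.62 for *Myc*.

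**Figure D1:**
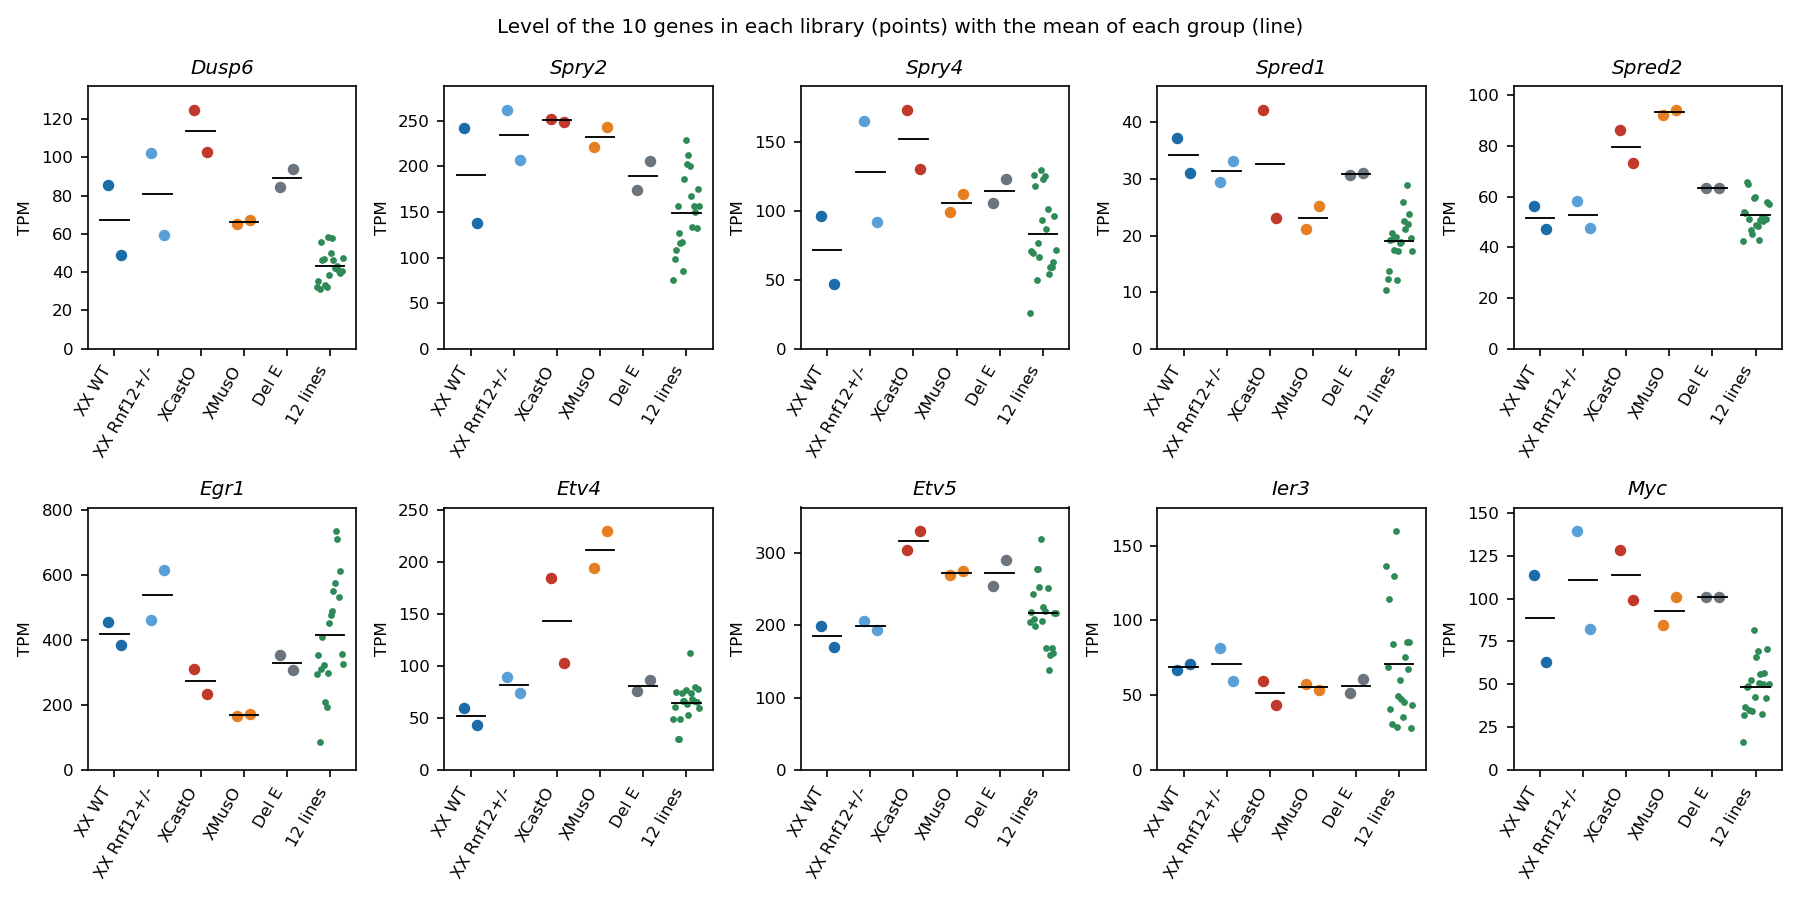
Level of each member in TPM (vertical axis, linear, starting at 0) in every library, by group; large points are the libraries of XX WT, XX Rnf12 +/-, XCastO, XMusO and deletion E, small points the 20 libraries of the 12 deletion lines, and black lines the mean over the libraries shown. *Etv4*, *Etv5* and *Spred2* of the 4 XO libraries lie above the 4 XX libraries, *Egr1* below, and *Dusp6* and *Myc* have their lowest group mean in the 12 deletion lines.

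As a check that does not rest on a fitted spread, the mean log2(TPM + 1) of 4 XO and 4 XX libraries was compared in an exact permutation test (two-sided), for which 70 regroupings allow no p below 0.0286. It takes the libraries as exchangeable, although each side pools 2 conditions and the sides differ in series and read type. Same-numbered XX libraries also deviated together (r = 0.79 across genes). *Spred2*, *Etv4*, *Etv5*, *Egr1* and *Ier3* reached 0.0286. For these 5 the groups did not overlap in TPM, with 3 higher and 2 lower in XO, where 13.6% of all genes tested had all 4 XO libraries above and 26.3% had all 4 below the XX libraries. *Ier3* ranged from 43.5 to 59.3 TPM in XO and from 59.5 to 81.8 TPM in XX, a gap that on log2 CPM scaled by autosomal genes was no longer clear (exact permutation p = 0.114). The exact permutation p was 0.4 for *Dusp6*, 0.371 for *Spry2* and 0.314 for *Spry4*.

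Each XO line was also set against XX Rnf12 +/-, the parental genotype, so the 2 comparisons share their control libraries. In XCastO, *Spred2* (0.69), *Etv4* (0.91) and *Etv5* (0.76) were higher and *Egr1* was lower (-0.88), so 4 of 10 members were called beside 34.7% of all genes. In XMusO the same 4 members were called, *Spred2* at 0.96, *Etv4* at 1.52, *Etv5* at 0.59 and *Egr1* at -1.52, beside 45.1% of all genes (log2 fold changes, edgeR). In both comparisons the members' count is not far from that of genes at large. With only the 4 libraries of the XCastO comparison in the fit, *Spred2* (adjusted p = 0.0526), *Etv4* (0.11) and *Egr1* (0.0505) did not pass.

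The 2 XO lines come from 1 library series and read type, but XMusO also has little *Rnf12* transcript (3.53 TPM), so the X that was kept and the loss of *Rnf12* cannot be told apart. In XMusO against XCastO, only *Egr1* passed, at -0.65 ± 0.17 (SE, edgeR adjusted p = 0.0337), so 1 of 10 members was called beside 5.83% of all genes. *Dusp6* was at 66.2 ± 1.43 TPM in XMusO and 114 ± 15.7 TPM in XCastO (SD, n = 2), and its log2 difference of -0.73 ± 0.23 had an adjusted p of 0.067 with edgeR and of 0.0294 with DESeq2. *Etv4* differed by 0.61 ± 0.23 (adjusted p = 0.12). The call for *Egr1* was lost without XCastO replicate 1 (-0.42, adjusted p = 0.226), XMusO replicate 1 (-0.63, adjusted p = 0.182) or XMusO replicate 2 (-0.66, adjusted p = 0.163), and with only the 4 XO libraries in the fit (adjusted p = 0.123). Without XCastO replicate 1, *Etv4* was higher in XMusO (adjusted p = 0.0102).

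**Figure D2:**
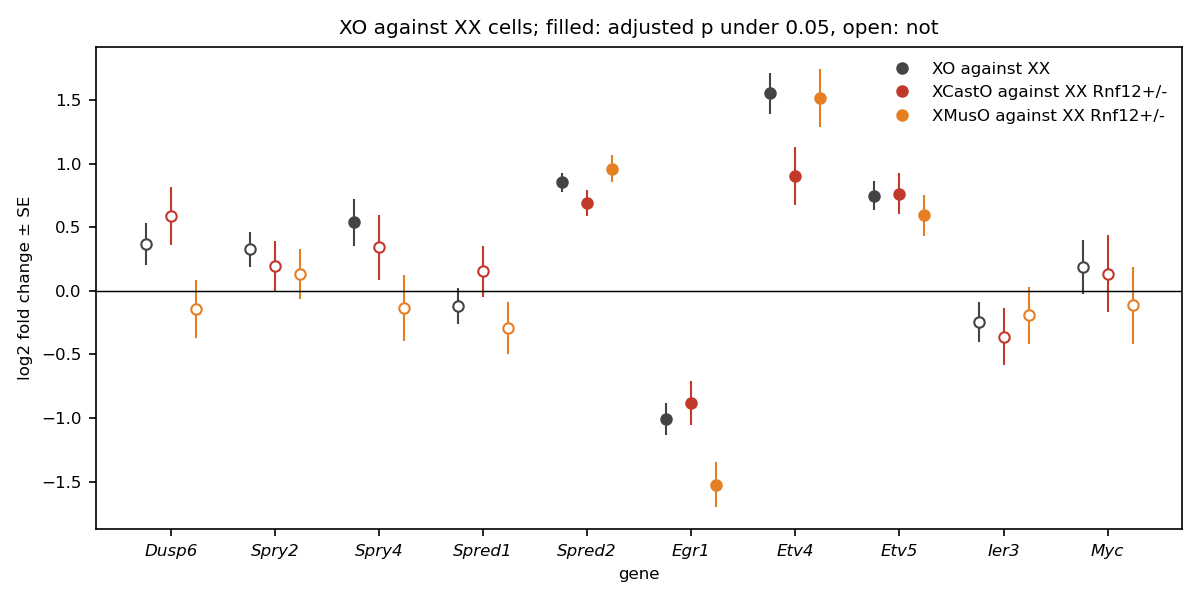
Log2 fold change (vertical axis, with SE as bars) of the 10 members in XO against XX, XCastO against XX Rnf12 +/- and XMusO against XX Rnf12 +/- cells; filled points have an edgeR adjusted p under 0.05. *Spred2*, *Etv4* and *Etv5* are above 0 and *Egr1* is below 0 in all 3 comparisons.

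The rest of the pathway did not move as a block in XO cells. The counts in its lists stand beside 25.7% of all genes called higher and 29.5% called lower. Of 9 FGF ligands, 1 was higher and 5 were lower (median -0.93), of which *Fgf1* (-2.23), *Fgf2* (-1.98) and *Fgf10* (-1.71) fell most, from means of 1.40, 4.46 and 14.0 TPM in XX cells. Without both XX replicate 1 libraries, *Fgf2* was at -0.61 and not called (adjusted p = 0.174). *Fgf15* was the ligand that rose (0.69). *Fgf4*, the main ligand of mESCs, was at 179 TPM in XO and 211 TPM in XX cells and was not called (-0.10 ± 0.08). Of 11 receptor tyrosine kinases, *Igf1r* was higher (0.21) and *Egfr* (-1.01), *Insr* (-0.73) and *Kit* (-0.42) were lower, while the FGF receptors *Fgfr1* (0.16) and *Fgfr2* (0.14) did not pass. Without both XX replicate 1 libraries, *Egfr* stood at 0.00.

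Of 19 adaptors and members of the RAS cascade, 6 were higher and 4 lower (median 0.09), beside 25.7% and 29.5% of all genes. *Shc1* (0.82), an adaptor that couples receptors to RAS, *Rps6ka1* (0.58), a kinase below ERK, and *Braf* (0.42) rose most, and *Map2k1* (-0.21), a MEK gene, was among those that were lower. Of 15 other feedback and negative regulators, 6 were higher and 5 lower (median -0.20). *Pebp1* (0.74), an inhibitor of the kinase cascade, *Spred3* (0.70) and *Il17rd* (0.66), an inhibitor of FGF receptor signalling, were higher, and the nuclear phosphatases *Dusp1* (-1.09) and *Dusp4* (-0.98) and the RAS GTPase-activating gene *Rasa1* (-0.92) were lower.

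Among 16 other transcriptional targets of MAPK signalling, 2 were higher and 6 lower (median -0.21), beside 25.7% and 29.5% of all genes. *Srf* (0.52) and *Epha2* (0.34) were higher. *Egr3* (-1.47), *Jun* (-1.22) and *Fosl2* (-0.79), which like *Egr1* encode EGR or AP-1 factors, were lower.

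The X-linked MAPK regulators that passed the filter were all lower in XO cells, 7 of 7 tested, with a median of -1.35, and *Spry3* was not tested. Of all 748 X-linked genes tested, 72.3% were lower, with a median of -1.13, so the list is read against the loss of an X at large. *Klhl13*, which encodes an adaptor of a ubiquitin ligase, was at 488 and 783 TPM in XCastO, 61.2 and 58.8 TPM in XMusO and 1109 TPM on average in XX cells. The levels of the XMusO libraries were thus well under those of XCastO, at -3.36 on the log2 scale. *Dusp9*, an ERK phosphatase, was lower in XO cells (-0.67), but not without both XX replicate 1 libraries (-0.12, adjusted p = 0.581). The others were *Gab3* (-2.39), *Rps6ka3* (-1.74), *Rps6ka6* (-1.35), *Elk1* (-1.13) and *Araf* (-0.64).

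Some markers of cell state also differed between XO and XX cells, where 25.7% of all genes were higher and 29.5% lower. Formative and primed markers summed to between 555 and 1071 TPM in XO and between 313 and 427 TPM in XX libraries. The sums of embryonic stem cell markers overlapped, at 8967 to 10606 TPM in XO and 9593 to 11479 TPM in XX libraries. Of 8 formative and primed markers, 5 were higher in XO cells, led by *Dnmt3b* (1.85), *Cldn6* (1.58) and *Lef1* (1.37), and *Sox3* was lower (-0.65). Of 8 embryonic stem cell markers, 5 were lower, most of all *Tbx3* (-1.93), *Nanog* (-1.21) and *Sox2* (-0.89), and *Dppa5a* (0.32) and *Pou5f1* (0.25) were higher. Of 10 feeder markers, *Postn* was higher (0.93) and *Lum* (-1.82) and *Prrx1* (-1.16) were lower, and of 8 primitive endoderm markers *Cubn* was higher (1.11) and *Gata6* lower (-1.30). The feeder markers summed to between 112 and 248 TPM in XO and between 117 and 381 TPM in XX libraries. The part of cell state and of feeder RNA in the members' differences was not tested. Of the genes named from these lists, *Fgf15*, *Egfr*, *Igf1r*, *Map2k1*, *Spred3*, *Fosl2*, *Epha2*, *Dusp9*, *Dppa5a*, *Sox3*, *Postn*, *Lum*, *Prrx1*, *Cubn* and *Gata6* each lost the call when at least 1 of the 8 XX and XO libraries was left out.

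In XX Rnf12 +/- against XX WT, 0 of 10 members were called by edgeR, 3 had an unadjusted p under 0.05 (*Spry4*, *Etv4* and *Egr1*), DESeq2 also called 0, and 2.75% of all genes were called. *Spry4* came nearest, at 129 TPM against 71.8 TPM (0.87 ± 0.26, adjusted p = 0.0928). It passed without XX Rnf12 +/- replicate 2 (1.23, adjusted p = 0.0203) or XX WT replicate 1 (1.46, adjusted p = 0.00643). Same-numbered libraries of these groups deviated together (r = 0.79 across genes), and a fit of their 4 libraries alone with the replicate number as a block, chosen after seeing the data, called 4 members and 1545 genes in all. In that fit *Spry4* was at 0.89 (adjusted p = 0.000464), and with the block in the fit of all libraries 0 members were called.

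Deletion E is the deletion line that was sequenced together with XX Rnf12 +/-. In this comparison 0 of the 10 members were called by edgeR, 2 had an unadjusted p under 0.05 (*Egr1* and *Etv5*) and DESeq2 called 1, while 0.584% of all genes were called. *Egr1*, at 354 and 308 TPM in deletion E, stood at the threshold (-0.76 ± 0.17, adjusted p = 0.0503), and it passed with DESeq2 (adjusted p = 0.00285) and without XX Rnf12 +/- replicate 1 (-0.95, adjusted p = 0.0125).

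In the mean of the other 12 deletion lines against XX Rnf12 +/-, 7 of 10 members were lower and 0 higher, beside 16.7% of all genes lower. *Myc* fell by 1.42 ± 0.20 on the log2 scale (adjusted p = 5.5e-05). *Dusp6* fell by 1.02 ± 0.16 (adjusted p = 0.000127). *Spred1* (-0.89), *Spry4* (-0.88), *Spry2* (-0.85), *Egr1* (-0.69) and *Etv4* (-0.46, adjusted p = 0.0414) were also lower, whereas *Spred2* (-0.08), *Etv5* (0.07) and *Ier3* (-0.12) did not pass.

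The ranges came close to each other. *Dusp6* ranged from 31.0 to 58.6 TPM with a median of 42.3 TPM in the 20 libraries, just under the 59.6 TPM of the lowest XX Rnf12 +/- library. *Myc* ranged from 16.6 to 81.5 TPM with a median of 49.4 TPM, just under the 82.5 TPM of XX Rnf12 +/- replicate 2. XX WT replicate 2, at 49.0 TPM of *Dusp6* and 62.9 TPM of *Myc*, lay within the range of the 12 lines. *Spry2* (75.6 to 228 TPM), *Spry4* (26.0 to 129.7 TPM), *Egr1* (86.6 to 735 TPM) and *Etv4* (29.7 to 113 TPM) overlapped with XX Rnf12 +/-. The 12 lines belong to another library series than XX Rnf12 +/-, so the series cannot be told apart from the deletions, some of which overlap. Deletion E, in the series of the XX cells, had 84.7 and 94.1 TPM of *Dusp6*, 101 and 101 TPM of *Myc* and 30.8 and 31.0 TPM of *Spred1*, above every library of the 12 lines for each of these genes. *Col1a1* was at 116 and 182 TPM in deletion E and between 16.2 and 97.4 TPM in the 12 lines, and its part was not tested. Without XX Rnf12 +/- replicate 1 the number of members lower fell to 4.

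Within the 12 lines, which share 1 library series, an F test of any difference between lines called 9 of 10 members, beside 44.9% of all genes. *Egr1* (edgeR adjusted p = 1.19e-06) and *Ier3* (8.01e-06) varied most clearly and *Dusp6* did not pass (0.165), though it did with DESeq2 (0.0011) or with only these 20 libraries in the fit (0.0175). *Myc* (0.0332) was lost without deletion A (0.171), and also without any of the deletion C or H libraries, at 0.052 to 0.0657.

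Setting each line against the other 11 gave 28 calls in 120 tests, 16 higher and 12 lower. The share of all genes called was 4.92% for deletion A, 0.344% for B, 1.99% for AB, 30.9% for C, 1.16% for C-G, 11.2% for D, 3.91% for F, 4.76% for H, 7.35% for I, 14.9% for I-TEL, 18.6% for J and 1.26% for K. No member was called in deletions B and C-G, which have 1 clone each and low shares among all genes.

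Deletion A had the lowest level of the Sprouty genes and of *Myc*. In its only clone *Spry2* was at 75.6 TPM (-0.91), *Spry4* at 26.0 TPM (-1.62) and *Myc* at 16.6 TPM (-1.51), while *Ier3* was high at 136 TPM. Their adjusted p lay between 0.00735 and 0.0383, on the assumption that the lone clone varies like the lines with 2 clones. *Dusp6* was at 32.0 TPM and not called.

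*Egr1* was the member with the widest spread among the lines, 8.35-fold from deletion I-TEL to deletion AB. It was at 735 and 711 TPM in deletion I-TEL (adjusted p = 2.81e-06), 532 and 612 TPM in J (0.76), 553 and 577 TPM in I (0.79) and 479 and 489 TPM in H (0.53), all called higher. It was called lower at 211 and 195 TPM in deletion D (-0.83) and at 86.6 TPM in the only clone of AB (-2.20, adjusted p = 1.15e-05). Both clones of each line with 2 libraries fell on the same side of the 385 TPM median over the 20 libraries, except in deletions C and F.

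*Ier3* followed another order. Both clones of deletion D were high at 129.6 and 159 TPM (1.21, adjusted p = 0.000138), as was deletion A, and the lowest lines were K at 28.2 and 43.3 TPM (-0.99), C at 41.0 and 31.0 TPM (-0.98), F at 28.9 and 49.6 TPM (-0.81) and I at 35.3 and 45.5 TPM (-0.78). Deletion AB, at 115 TPM, was high and not called.

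The Sprouty genes were higher in deletions F and H. *Spry2* was at 186 and 228 TPM in F (0.71) and 203 and 213 TPM in H (0.70), and *Spry4* at 129.7 and 93.3 TPM in F (0.72) and 123 and 125 TPM in H (0.86). In deletion I, *Spry2* was higher by 0.52, and the median of 229 well-expressed genes of its chromosome 14 was higher by 0.34 in that line, where it was 0.06 in F and 0.03 in H. Extra copies of chromosome 14 were not tested. *Spred1* (0.54) and *Etv4* (0.69) were also higher in I.

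Deletion C, the line with the largest share of all genes called, had *Spry4* at 126 and 119 TPM (0.83) and *Spred2* at 65.8 and 65.2 TPM (0.38), both higher. Its *Etv4* was the lowest of all conditions, at 29.7 and 29.7 TPM (-1.13, adjusted p = 0.000239). The libraries of this line did not overlap with those of any other line for *Etv4*.

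**Figure D3:**
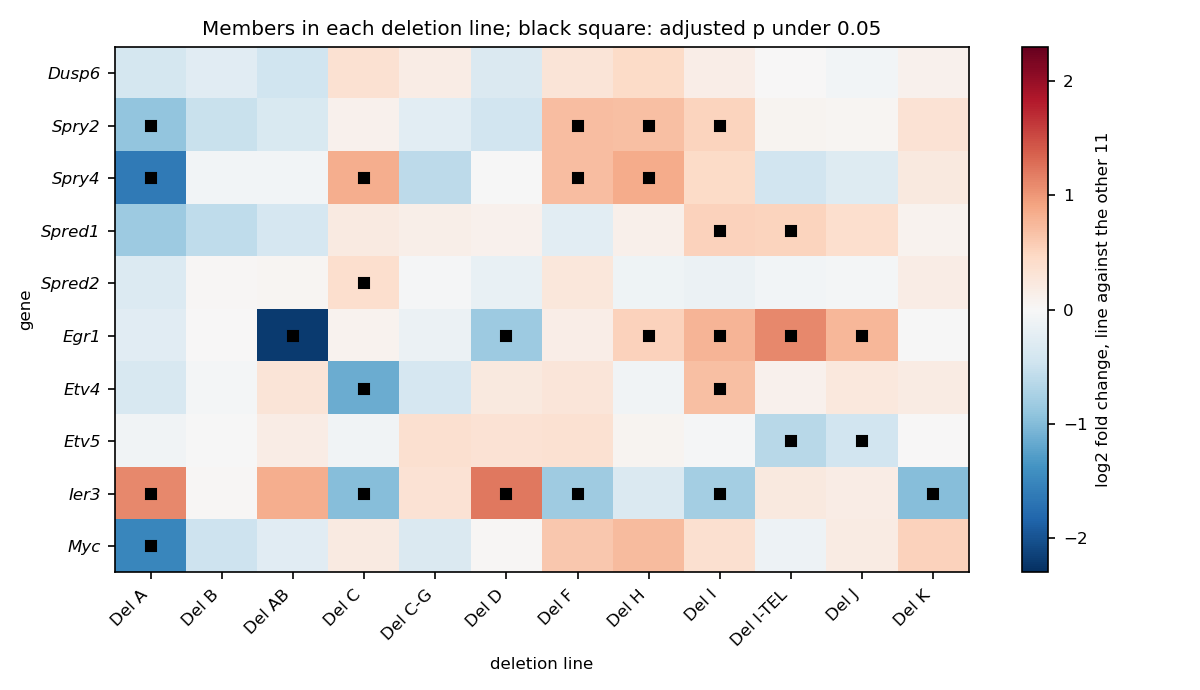
Log2 fold change of each member (rows) in each of 12 deletion lines (columns) against the equally weighted mean of the other 11, as colour from blue (lower) to red (higher), with black squares where the edgeR adjusted p is under 0.05. *Egr1* has 6 squares, *Ier3* 6 and *Dusp6* none.

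Lines from the second founder, I-TEL and J, had 3 members called against the 10 first-founder lines, beside 31.5% of all genes. That count is near the share of genes at large. *Egr1* was higher (1.02 ± 0.09, adjusted p = 9.66e-08), *Spred1* was higher (0.49 ± 0.12, adjusted p = 0.00299) and *Etv5* was lower (-0.60 ± 0.09, adjusted p = 7.05e-05). *Etv5* was at 139 and 158 TPM in I-TEL and 169 and 162 TPM in J. Of 16 other MAPK targets, 8 were higher, among them *Egr2* (1.59), *Fos* (1.25) and *Fosb* (1.04). In the same comparison 8 of 10 feeder markers (*Col3a1* by 1.72) and 6 of 8 primitive endoderm markers were higher. Feeder markers summed to 164 to 298 TPM in the second-founder lines and 86.3 to 275 TPM in the others. The primitive endoderm markers were low, with sums of 26.2 to 32.4 TPM in the second-founder lines and 15.1 to 26.2 TPM in the others. The part of either list in the result was not tested. Founder and deleted region cannot be told apart for these lines.

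Over all 17 conditions, few steps in the order of levels exceeded the spread between libraries. XCastO had the highest mean of *Dusp6* (114 TPM), *Spry2* (251 TPM), *Spry4* (152 TPM), *Etv5* (316 TPM) and *Myc* (114 TPM), and XMusO that of *Spred2* (93.2 TPM) and *Etv4* (212 TPM). Deletion A had the lowest mean of *Spry2*, *Spry4*, *Spred1*, *Spred2* and *Myc*. Of the 16 steps between neighbours in each order, 5 for *Egr1*, 3 each for *Spred2*, *Etv4* and *Ier3*, 2 each for *Spry2* and *Spred1* and 1 each for *Dusp6*, *Spry4*, *Etv5* and *Myc* were larger than the SD between libraries of a condition (pooled over the 13 conditions with 2 libraries, on log2(TPM + 1)). The other neighbours did not differ beyond that spread. A step of this size was not tested, and it may cross library series or rest on a line with 1 clone. *Spred2* was the steadiest gene, with a pooled SD of 0.10, and *Myc* the least steady, with 0.36.

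The members did not share 1 pattern among the deletion lines. Over the 20 libraries of the 12 lines, which share their series and include clones of the same line, log2 CPM of *Spry4* and *Myc* had a Pearson correlation of 0.83 and a Spearman correlation of 0.71. *Dusp6* and *Spry2* were at 0.72 and 0.69, and *Dusp6* and *Ier3* at -0.74 and -0.74, so *Ier3* was high where the Sprouty and *Dusp6* transcripts were low. *Etv4* and *Etv5*, which were both higher in XO cells, were at -0.06 and 0.03. The autosomal genes outside the list most like *Dusp6* were *Topors* (0.87), *Slc38a2* (0.87), *Rbm15* (0.86), *Ing3* (0.86) and *Zfp715* (0.85). These values describe 20 libraries.

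All 10 members are autosomal, so both alleles could be counted in every condition. *Ier3* had no allelic counts and *Myc* had as few as 4 in a library, whereas *Etv5* had 445 to 2836. The share of counts assigned to an allele was 21.9% to 22.0% in the XO series and 12.4% to 12.5% in the series of the XX cells. Its part in the allelic ratios was not tested. In XO against XX, the ratio of *Mus* to *Cast* counts changed for 1 of the 9 members tested, *Etv5* (0.32 ± 0.08 on the log2 scale, edgeR adjusted p = 0.00531), beside 12.4% of all autosomal genes tested. In XMusO against XCastO, a comparison that shares the XMusO libraries, it changed for *Etv5* too (0.64 ± 0.11, adjusted p = 0.00581), beside 0.125% of 8781 genes, or 11 genes. The other 8 members were not called in either comparison.

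The *Etv5* share of the *Mus* allele was 41.2% in XX WT, 38.0% in XX Rnf12 +/-, 39.5% in XCastO and 50.4% in XMusO. XCastO thus lay between the XX groups, and of the XO lines only XMusO stood apart from them. By library it was 41.9% and 37.3% in XCastO and 48.0% and 53.0% in XMusO, so the 2 XMusO libraries were higher than both XCastO libraries. In the 13 deletion lines it was between 28.9% (deletion C) and 41.1% (deletion I-TEL), so no deletion line reached the XMusO level. Because *Etv5* is at chr16:22381309-22439719 (GRCm38, minus strand), the 14 other genes within 1 Mb with at least 20 allelic counts per library on average were read in the same way. None was called. Their changes ran from -8.86 points (*St6gal1*) to 24.8 points (*Fetub*, with 29.0 counts per library), and the 3 with the most counts moved by 4.76 points (*Igf2bp2*), -2.62 points (*Tra2b*) and -1.57 points (*Eif4a2*), against 10.9 points for *Etv5*. The total of *Etv5* differed little between the XO lines (-0.17 ± 0.16, adjusted p = 0.599). Without XMusO replicate 2 the XMusO against XCastO difference was 0.49 (adjusted p = 0.239), without XCastO replicate 2 it was 0.50 (adjusted p = 0.115), and with only the 8 XX and XO libraries in the fit its adjusted p was 0.188. The XO against XX difference did not pass without XMusO replicate 2 (0.25, adjusted p = 0.0714).

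**Figure D4:**
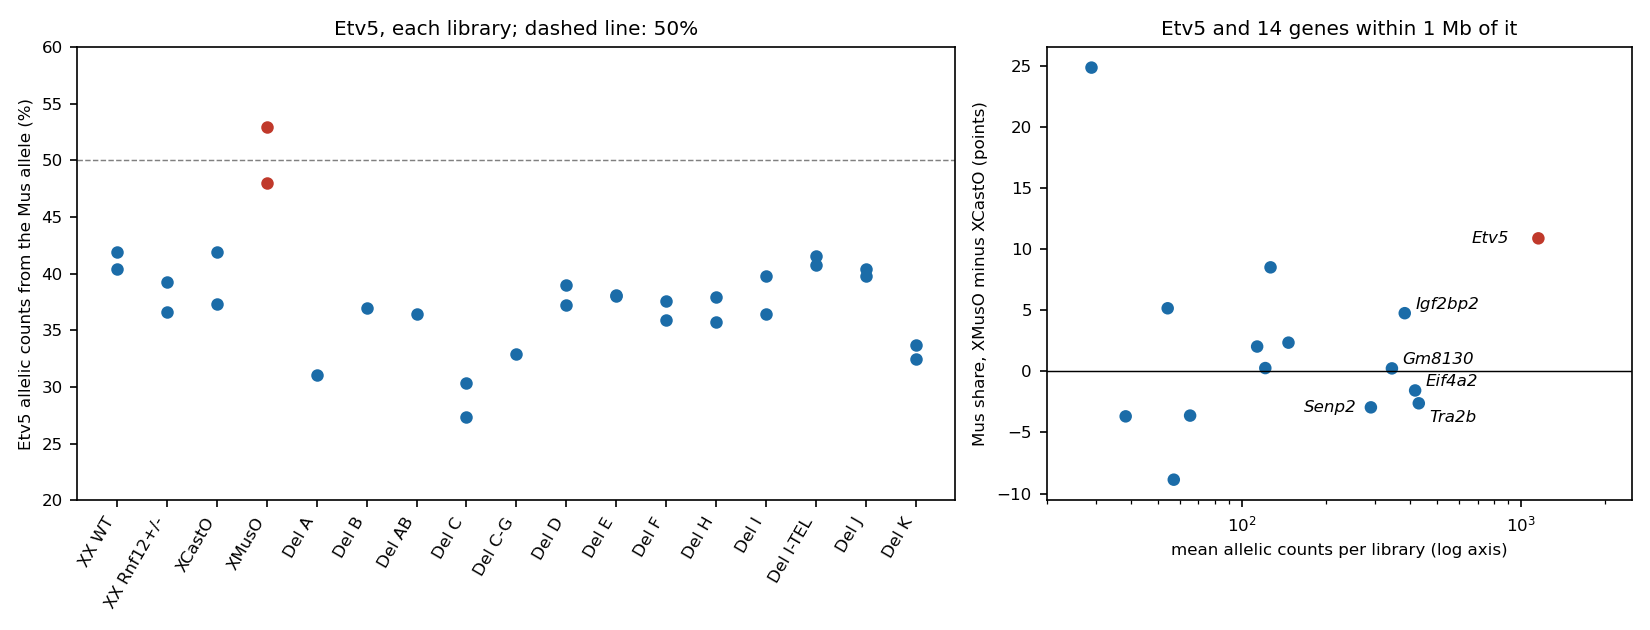
Left, share of *Etv5* allelic counts from the *Mus* allele (vertical axis, percent) in each library by condition, with XMusO in red; right, change of that share from XCastO to XMusO in percentage points against mean allelic counts per library (log axis) for *Etv5* (red) and 14 genes within 1 Mb (blue). The 2 XMusO libraries, at 48.0% and 53.0%, are above all others, and *Etv5* has the most counts.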

How the data were processed

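Bulk RNA-seq (stranded mRNA libraries) was analysed for 30 libraries of 17 conditions. Per the labels, the authors used Trim Galore 0.6.7, HISAT2 2.2.1, SAMtools 1.10 and HTSeq 0.12.4 with mm10. The paper's methods name featureCounts as the counter, a difference that is not settled here. The deposited values are counts per gene, in 90 columns, for all reads and for reads assigned to the *Mus* and the *Cast* allele, without normalization. Of 55421 genes, 55240 matched GENCODE M21 (GRCm38) by identifier, from which exon lengths for TPM were taken. Unmatched genes held at most 0.00401% of counts.

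Counts were tested with edgeR 4.0.16 (R 4.3.3), quasi-likelihood, all 30 libraries, 1 term per condition, TMM factors from autosomal genes, at least 10 counts in at least 2 libraries, and Benjamini-Hochberg adjustment over all genes at 0.05. Lines with 1 clone borrow the spread of the others. Allelic counts were tested with a term per library on autosomal genes with a mean of at least 20 allelic counts. SE was computed as the log2 fold change over the root of F. DESeq2 1.42.0 and other settings were alternatives. The tests were checked on simulated data. Depth was 8816184 to 21181405 counts per library, and p-values measure the spread between clones or cultures, which may be technical. The members and gene lists were chosen with earlier results of these data known. Named genes were all members, up to 3 called genes with the largest rise and fall per pathway list in XO against XX, the X-linked regulators, the markers, and the 5 autosomal genes most like *Dusp6*. *Fgf4*, *Fgfr1*, *Fgfr2* and the second-founder targets were named after their values were seen. Some genes that this rule names are not reported here.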

Additional observations from a re-analysis of the deposited data

Results flagged for a closer look

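The difference among the 12 deletion lines passed the F test for 9 members, with edgeR adjusted p of 0.000614 for *Spry2*, 0.000742 for *Spry4*, 0.00973 for *Spred1*, 0.0059 for *Spred2*, 1.19e-06 for *Egr1*, 0.00439 for *Etv4*, 0.00345 for *Etv5*, 8.01e-06 for *Ier3* and 0.0332 for *Myc*. Of all genes tested, 44.9% passed the same F test. *Egr1* differed between the XO lines by -0.65 on the log2 scale (XMusO against XCastO), and the *Mus* to *Cast* ratio of *Etv5* by 0.64. With only the XO libraries in the fit, *Egr1* did not pass (edgeR adjusted p = 0.123). With only the 8 XX and XO libraries in the fit, the *Etv5* ratio did not pass (edgeR adjusted p = 0.188). Without XCastO replicate 1 the *Egr1* difference was -0.42, and without XMusO replicate 2 that of the *Etv5* ratio was 0.49. No condition has more than 2 libraries, so a single library far from the others could not be tested for.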

How the results depend on the processing

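Of the values for single genes under alternatives that kept all libraries or compared subsets, 844 of called genes stayed on their side of the threshold, 34 fell short of it and 1 turned (*Egfr* in XO against XX, 0.00461 without both XX replicate 1 libraries), and of genes not called 188 stayed and 28 passed. The alternatives without XX replicate 1 and the block with only 4 libraries were chosen after seeing the data. Without a filter on low counts, deletion E had 656 genes called (107 otherwise) with 1 member higher and 1 lower, XCastO against XX Rnf12 +/- 5 members higher, XMusO against XCastO 1 higher and 4 lower, XX Rnf12 +/- against XX WT 940 genes (504 otherwise) and 3 members higher, single deletion lines 49 member calls and the second founder 2 members lower. With only the libraries compared in the fit, genes called fell to 0 for deletion E, 1784 for XCastO (6361 otherwise, with 1 member higher and 0 lower), 48 for XMusO against XCastO (1067 otherwise, 0 members lower) and 1 for XX Rnf12 +/- against XX WT, and the second founder had 2 members lower. DESeq2 called 181 genes for deletion E with 1 member lower, and 2 members lower in XMusO against XCastO. Autosomal genes alone gave 3 calls for deletion E, and TMM factors from all genes 1 member lower. XO against XX without XX replicate 1, with 1 library left in each XX group, had *Dusp6* at 0.79, *Spry2* at 0.62 and *Myc* at 0.62. Allelic calls between the XO lines numbered 21 at a minimum mean of 5 counts and 0, with 0 members, in the 8 XX and XO libraries. The cause of these changes was not tested.

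Leaving out single libraries, XO against XX ranged over 8995 to 9763 genes, 3 to 6 members higher and 1 to 2 lower (*Spred1* from -0.39 to 0.053 without XCastO replicate 1 or 2), XCastO against XX Rnf12 +/- over 5157 to 5521 genes and 2 to 5 members higher, XMusO against XX Rnf12 +/- over 6195 to 7187 genes, XMusO against XCastO over 194 to 1082 genes, 0 to 1 members higher and 0 to 2 lower, XX Rnf12 +/- against XX WT over 167 to 415 genes and 0 to 2 members higher, deletion E over 34 to 518 genes and 0 to 1 members lower, the 12 lines over 1129 to 5385 genes and 4 to 7 members lower, the F test over 6593 to 8705 genes and 8 to 9 members, and the second founder over 3836 to 5990 genes and 1 to 2 members lower. Allelic calls ranged from 858 to 1126 genes and 0 to 2 members in XO against XX and from 0 to 169 genes and 0 to 1 members between the XO lines.

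Replicate numbers do not pair the samples across all groups: deviations of same-numbered libraries correlated over 0.1 in 32 of 78 pairs of groups (-0.45 to 0.79), with the highest value for XX WT and XX Rnf12 +/-. With the replicate number as a block, XMusO against XCastO had 2 members lower, and XX Rnf12 +/- against XX WT, with only its 4 libraries, had 1545 genes and 4 members higher.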
